A study of Mus musculus with 12 samples.

Results

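Livers of mice labelled Lix1l knockout and of wild-type littermates, all kept on a low-fat diet (LFD), were compared by RNA-seq across every gene that reached a working level. A row of the expression table was kept when 3 or more of the 6 LFD libraries reached 1 TPM, and 11018 of 56107 rows met this rule. Of these, 10758 carried an Ensembl identifier, 260 were loci assembled by StringTie, and 9894 were annotated as protein coding. TPM is a transcript level scaled to transcript length and to a fixed total per library, so levels can be set side by side between genes, but it keeps no read depth. The 6 libraries were wild type (WT LFD) animals 4, 7 and 8 and knockout (KO LFD) animals 2, 4 and 5, out of 12 in the series. The other 6 libraries, 3 WT and 3 KO fed a high-fat diet (HFD), entered the estimate of spread and are used below as a second setting. All animals were 6 weeks old at the start and were fed for 12 weeks, and each library came from the frozen liver of 1 animal. The sources used here do not give the strain, the sex, the deleted part of Lix1l or the tissues in which it was deleted. In all 12 libraries Xist was at most 0.12 TPM and the Y-linked Ddx3y was at 7.45 to 14.2 TPM, the pattern of male tissue.

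The series asks how LIX1L bears on fatty liver disease, and the low-fat arm shows how knockout and wild-type livers compare without that dietary load. The liver makes most plasma proteins, and in the acute phase response hepatocytes that receive interleukin-6 and interleukin-1 signals, in part from resident macrophages called Kupffer cells, raise a set of secreted defence and carrier proteins. Serum amyloid A proteins, which ride on high-density lipoprotein, are the classic members of this set in mice, and the transcription factors C/EBP, STAT3 and NF-kB are known to drive them. The same cells switch between glycogen and lipid synthesis in the fed state and fatty acid oxidation under PPARA in the fasted state.

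Lix1l itself (chromosome 3, 96601149 to 96626171, plus strand, GRCm38) lay too low to be tested. Its TPM was 0.72, 0.58 and 1.08 in WT 4, 7 and 8, and 0.27, 0.21 and 0.78 in KO 2, 4 and 5. The groups overlapped, with 0.793 ± 0.258 against 0.420 ± 0.313 TPM (SD, n = 3 each), and an exact 2-sided permutation test gave p = 0.3, where 3 against 3 cannot give less than 0.1. On HFD the groups overlapped as well, with 1.18, 1.73 and 0.90 TPM in WT against 1.92, 0.15 and 1.38 TPM in KO. The level of Lix1l therefore did not separate the groups on either diet, and knockout here means the label. Cd36, the fatty acid transporter named in the series title, stood at 16.1, 14.4 and 10.7 TPM in WT and at 5.93, 7.29 and 18.4 TPM in KO. KO 5 was above every WT library and the other KO libraries below, and the difference did not pass (log2 -0.49 ± 0.36 SE, limma adjusted p = 0.641).

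The 6 libraries each held 10604 to 11249 genes at 1 TPM or more. Across genes, Spearman's rho was 0.929 to 0.954 for pairs of WT libraries, 0.910 to 0.928 for pairs of KO libraries and 0.903 to 0.933 for mixed pairs. Mitochondrially encoded genes held 10.8 ± 1.29% of TPM in WT and 8.10 ± 0.627% in KO (SD, n = 3 each; exact 2-sided permutation p = 0.1, the smallest that 3 against 3 can give). Because TPM is a share of a fixed total, the large acute phase transcripts described next also take room from others. The acute phase genes together held 1.91 to 2.26% of TPM in WT and 5.62, 7.17 and 17.6% in KO 2, 4 and 5. Their part in the other differences was not tested. Hepatocyte markers were present throughout, with albumin (Alb) between 17654 and 51216 TPM.

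At an adjusted p below 0.05, 26 of the 11018 genes were called by limma on log2(TPM + 1), which is 0.236% of those tested. The livers labelled knockout were higher for 15 (0.136%) and lower for 11 (0.0998%). TPM values of the 2 groups did not overlap for any of the 26, and 12 differed by more than 2 on the log2 scale. For Cdkn1a, Snhg11 and Ighv1-72 every WT value was below 1 TPM, and for B930025P03Rik, Defb1 and Gm27177 every KO value was. These genes passed the filter only through the group where they are high, which by itself fixes their lack of overlap. Without adjustment 1417 genes (12.9%) had p below 0.05. Over all genes the values did not overlap for 1227 (11.1%) that were higher and 716 (6.5%) that were lower in KO, and the median log2 difference was 0.07. These counts turned with the scaling, to 876 higher (7.95%) and 1235 lower (11.2%) under median-ratio scaling and 990 and 1115 under quantile normalization. The number of calls depended strongly on which libraries entered. It was 5, 14 and 7 without WT 4, 7 or 8, 31, 65 and 45 without KO 2, 4 or 5, and 1 (Saa1) when only the 6 LFD libraries were fitted. All 26 kept their direction in each of those fits, which their lack of overlap fixes in advance. Their unadjusted p was at most 0.00194, but they had been chosen by their p in the same libraries.

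**Figure D1:**
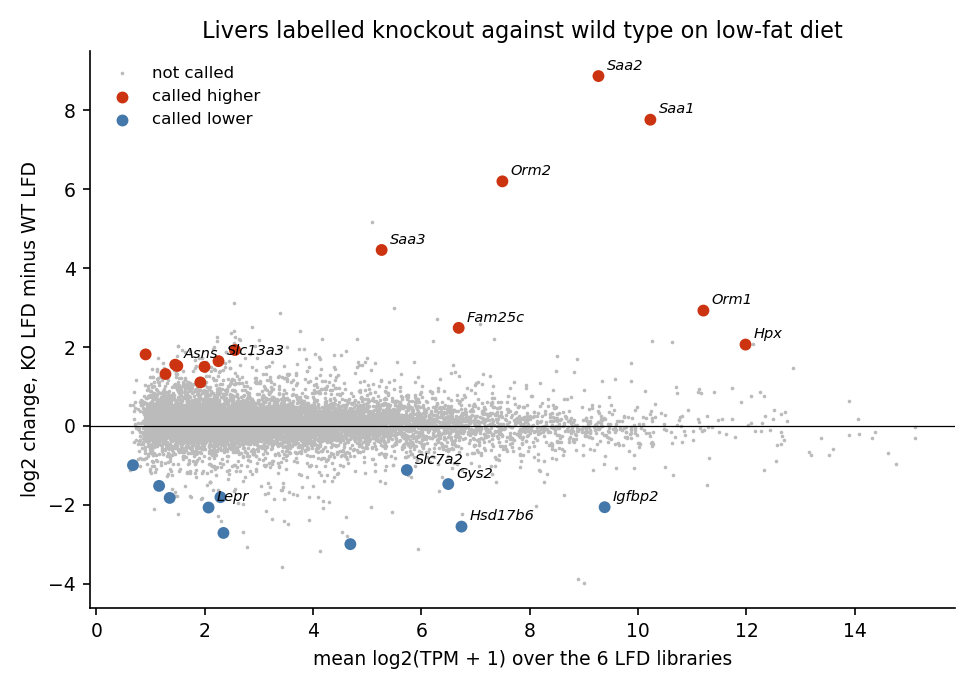
Difference between livers labelled knockout and wild type on LFD (vertical axis, log2 of TPM + 1) against mean level over the 6 LFD libraries (horizontal axis), 1 point per gene tested. Red points are the genes called higher and blue points those called lower. Among called genes Saa2, Saa1, Orm2 and Saa3 are highest, at 8.87, 7.77, 6.20 and 4.46.

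The 5 largest rises among called genes were those of Saa2, Saa1, Orm2, Saa3 and Orm1, all of the acute phase list. Of 29 tested members of this list, 6 were called higher (Saa1, Saa2, Saa3, Orm1, Orm2 and Hpx) and none lower, against 0.136% of all genes called higher. The values of 17 did not overlap and were higher in KO, and none did not overlap in the other direction. Over all genes these shares were 11.1% and 6.5%. The list's median was 1.17, against 0.07 for all genes. Leaving out KO 5 brought that median to 0.75, and the 6 calls became 2 without WT 4 and 3 without WT 8.

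Saa1 encodes a serum amyloid A apolipoprotein (chromosome 7, 46740497 to 46742980, minus strand). It stood at 95.2, 137 and 39.3 TPM in WT 4, 7 and 8, and at 10533, 13158 and 39768 TPM in KO 2, 4 and 5. Every knockout library was thus far above every wild-type library, with a ratio of means of 234 and a log2 difference of 7.77 ± 0.78 (SE; adjusted p = 0.00199). Its neighbour Saa2 (chromosome 7, 46751790 to 46754313, plus strand) had 20.0, 90.8 and 10.9 TPM in WT and 6241, 8690 and 43736 TPM in KO. The ratio of means was 482 and the log2 difference 8.87 ± 0.93 (adjusted p = 0.00199). In these livers 1.68, 2.18 and 8.35% of all TPM came from this pair, against at most 0.0228% in a wild-type library. The transcripts share sequence, with 46.8% of the 31-base words of Saa1 also in other genes, chiefly Saa2, so the split of reads between them is uncertain.

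Saa3, the family member that macrophages and fat cells also make, was at 4.58, 17.1 and 4.42 TPM in WT and at 165, 193 and 181 TPM in KO. Unlike its relatives it was even across the knockout livers, 179.8 ± 13.8 TPM (SD, n = 3), and it rose by 4.46 ± 0.64 (adjusted p = 0.0162). Orosomucoids, also called alpha-1-acid glycoproteins, carry lipids and drugs in plasma. Orm2 went from 14.6, 76.9 and 6.61 TPM to 981, 1629 and 2311 TPM (log2 6.20 ± 0.78, adjusted p = 0.00893). Orm1, which is abundant in normal liver, went from 907, 1043 and 661 TPM to 3293, 5604 and 14906 TPM (log2 2.93 ± 0.50, adjusted p = 0.0398). These genes also share 27.5 to 34.1% of their 31-base words, so their split is uncertain too. Hemopexin (Hpx), the plasma carrier of free heme, was tight in WT at 2086, 1928 and 1923 TPM. It reached 6078, 7782 and 11953 TPM in KO (log2 2.06 ± 0.33, adjusted p = 0.0336). For Saa1, Saa2, Orm1, Orm2 and Hpx the order of the knockout livers was the same, with KO 2 lowest and KO 5 highest.

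**Figure D2:**
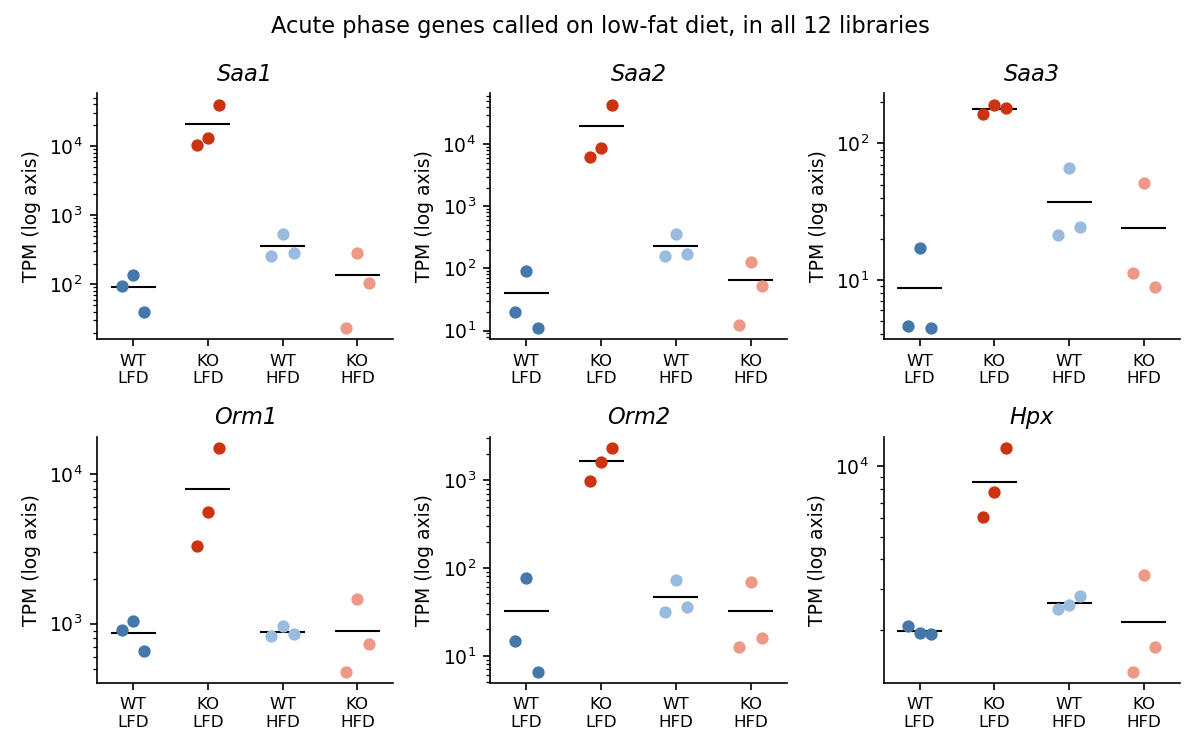
TPM (log axis) of the 6 acute phase genes called on LFD, in each of the 12 libraries of the 4 groups, with a bar at each group mean. In every panel the 3 KO LFD points lie above the points of the other groups.

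Members that were not called are given as values. Itih4, an inter-alpha-trypsin inhibitor chain, was at 556, 1216 and 631 TPM in WT against 1945, 3371 and 5335 TPM in KO (adjusted p = 0.0824). Haptoglobin (Hp), which binds free hemoglobin, was at 2002, 2366 and 2114 TPM against 5080, 7156 and 20730 TPM (adjusted p = 0.0874). Lipocalin-2 (Lcn2), a defence protein that traps bacterial iron carriers, was at 2.97, 13.1 and 2.31 TPM against 42.0, 76.3 and 2570 TPM (adjusted p = 0.134), so its mean rests on KO 5, and its log2 difference of 5.17 became 3.34 without that library. KO 5 also held the top values of the pentraxin Apcs, with 1509 TPM against 36.1 to 232 TPM in the other 5 libraries, and of the protease inhibitor Serpina3n, with 1375 TPM against 113 to 178 TPM. C-reactive protein (Crp), which is only a weak acute phase reactant in mice, was at 188, 195 and 175 TPM in WT and at 243, 229 and 318 TPM in KO (adjusted p = 0.523).

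The promoters of these genes are shown because their transcripts moved together. RefSeq (GRCm38.p6) gave a start for 5 of the 6 called acute phase genes, and Orm1 was not matched. The 250 bases before each start follow, 5′ to 3′ on the gene's strand, for Saa1 (chr7:46742981-46743230, minus), Saa2 (chr7:46751583-46751832, plus), Saa3 (chr7:46715677-46715926, minus), Orm2 (chr4:63362199-63362448, plus) and Hpx (chr7:105600117-105600366, minus). Capitals mark the letters TTGCNNAA, a short form of the site that C/EBP factors bind, read on either strand.
Saa1: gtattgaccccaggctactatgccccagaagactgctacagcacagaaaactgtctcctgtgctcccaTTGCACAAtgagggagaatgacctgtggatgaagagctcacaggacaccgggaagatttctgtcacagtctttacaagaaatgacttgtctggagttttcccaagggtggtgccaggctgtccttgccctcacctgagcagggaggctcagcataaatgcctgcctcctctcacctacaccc
Saa2: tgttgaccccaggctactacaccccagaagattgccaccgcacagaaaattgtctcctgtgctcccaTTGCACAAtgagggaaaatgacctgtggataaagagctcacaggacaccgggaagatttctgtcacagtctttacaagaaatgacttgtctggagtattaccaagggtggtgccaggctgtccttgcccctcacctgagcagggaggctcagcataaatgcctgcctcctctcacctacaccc
Saa3: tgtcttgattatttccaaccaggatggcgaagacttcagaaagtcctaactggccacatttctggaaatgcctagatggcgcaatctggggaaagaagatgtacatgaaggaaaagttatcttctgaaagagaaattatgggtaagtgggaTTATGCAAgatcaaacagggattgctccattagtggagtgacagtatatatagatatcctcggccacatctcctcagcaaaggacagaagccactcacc
Orm2: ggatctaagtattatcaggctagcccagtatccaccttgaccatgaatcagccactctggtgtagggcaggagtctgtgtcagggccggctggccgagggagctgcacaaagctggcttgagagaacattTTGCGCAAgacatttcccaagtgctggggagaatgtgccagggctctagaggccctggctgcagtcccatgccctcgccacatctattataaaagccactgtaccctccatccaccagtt
Hpx: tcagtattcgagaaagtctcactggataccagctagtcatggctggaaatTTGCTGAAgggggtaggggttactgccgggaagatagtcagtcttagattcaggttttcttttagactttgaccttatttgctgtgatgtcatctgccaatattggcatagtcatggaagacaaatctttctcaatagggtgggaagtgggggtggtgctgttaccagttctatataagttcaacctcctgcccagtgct

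All 5 windows held these letters, which occur in 9.55% of 27025 promoter windows of the same length. The match began 182 bases before the start in Saa1, 183 in Saa2, 99 in Saa3, 120 in Orm2 and 200 in Hpx. The Saa1 and Saa2 windows are near copies, identical at 238 of 250 bases (95.2%), so they count as about 1 sequence. A short form of the NF-kB site, GGG and CC with 5 bases between them on either strand, occurred in 2 of 5 (Saa1 and Saa2) against 45.4% of all windows, and the STAT letters TTCNNNGAA in 0 of 5 against 7.18%. The motifs were picked with the genes known, the C/EBP and NF-kB matches did not overlap in either window, and a match describes the letters only.

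Outside the acute phase list, Fam25c, a small protein of unknown role, rose in every knockout liver. It stood at 37.7, 40.7 and 50.0 TPM in WT and at 226, 367 and 172 TPM in KO (log2 2.49 ± 0.26, adjusted p = 0.00199). The fatty acid-binding protein Fabp4, typical of fat cells, macrophages and capillary endothelium, was at 3.14, 0.80 and 2.69 TPM against 10.7, 6.98 and 15.1 TPM (log2 1.93 ± 0.34, adjusted p = 0.0439). The fat cell markers Adipoq and Plin1 reached at most 0.25 and 0.11 TPM in any of the 6 libraries. Slc13a3, a carrier of dicarboxylates such as succinate, was nearly constant in WT at 1.69, 1.76 and 1.64 TPM and stood at 6.15, 5.60 and 11.7 TPM in KO (log2 1.64 ± 0.26, adjusted p = 0.0336).

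Of the genes below a mean of 5 TPM, chosen here after their values were seen, 2 encode stress-responsive proteins. Asparagine synthetase (Asns), a target of the amino acid response, was at 0.34, 0.27 and 1.40 TPM in WT and at 3.68, 3.13 and 4.34 TPM in KO (log2 1.55 ± 0.25, adjusted p = 0.0336). It was the 1 member called among 25 tested genes of the unfolded protein and integrated stress response, whose median was 0.22. Cdkn1a, the p21 inhibitor of the cell cycle, was at 0.85, 0.25 and 0.98 TPM against 2.65, 6.32 and 3.05 TPM (log2 1.52 ± 0.27, adjusted p = 0.0439). Snhg11, a host gene of small nucleolar RNA, and Wdfy1, an endosomal adaptor protein, rose by 1.32 ± 0.20 and 1.10 ± 0.18 (adjusted p = 0.0248 and 0.0336). Transcripts assigned to the immunoglobulin segment Ighv1-72 were listed at 0 in all 3 WT libraries and at 1.73, 4.04 and 2.16 TPM in KO, but 98.1% of its 31-base words occur in other genes, so this row is uncertain.

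The genes that fell include regulators of fuel use. Glycogen synthase 2 (Gys2), the liver enzyme that builds glycogen, was at 146, 129 and 176 TPM in WT 4, 7 and 8 and at 49.2, 48.4 and 62.9 TPM in KO 2, 4 and 5. The knockout livers were close to each other and about 2.81 times below WT in their mean (log2 -1.47 ± 0.21, adjusted p = 0.0162). Igfbp2, a plasma protein that binds insulin-like growth factors and is lowered by insulin, was at 1279, 1714 and 1150 TPM against 324, 582 and 182 TPM (log2 -2.06 ± 0.36, adjusted p = 0.0439). The leptin receptor Lepr, read here over all its isoforms, was at 6.51, 11.2 and 5.92 TPM against 0.40, 0.65 and 2.72 TPM (log2 -2.07 ± 0.34, adjusted p = 0.0336). Each of these genes had its lowest WT value above its highest KO value.

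Among called genes with an Ensembl identifier the largest fall was that of Hsd17b6, a steroid-converting dehydrogenase. It stood at 266, 491 and 131 TPM in WT and at 41.4, 66.3 and 29.0 TPM in KO (log2 -2.55 ± 0.42, adjusted p = 0.0365). Its relative Hsd17b13, a lipid droplet protein, was not called but was tight in both groups, at 503, 479 and 483 TPM against 187, 209 and 233 TPM (log2 -1.22 ± 0.24, adjusted p = 0.0824). The cationic amino acid transporter Slc7a2 fell from 83.8, 69.1 and 79.4 TPM to 35.0, 28.5 and 43.1 TPM (log2 -1.12 ± 0.20, adjusted p = 0.0439). Serpinb1a, an inhibitor of neutrophil proteases, fell from 7.53, 8.58 and 8.34 TPM to 1.47, 2.07 and 1.35 TPM (log2 -1.81 ± 0.25, adjusted p = 0.0162). The antimicrobial peptide gene Defb1, chosen after its values were seen, fell from 1.86, 4.82 and 2.23 TPM to 0.31, 0.61 and 0.08 TPM (log2 -1.52 ± 0.27, adjusted p = 0.0439). The noncoding RNA B930025P03Rik, also chosen afterwards, fell from 4.47, 3.59 and 3.41 TPM to 0.05, 0.37 and 0.73 TPM (adjusted p = 0.00199). The remaining 3 calls in this direction were 2 unannotated StringTie loci and Gm27177, an antisense transcript whose sequence is wholly shared with another gene. Another StringTie locus was among the genes that rose.

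Just outside the threshold were several genes that the naming rule admits as values. Npm1, a nucleolar chaperone of ribosome assembly, was at 128, 169 and 129 TPM in WT and at 67.6, 77.2 and 69.5 TPM in KO (log2 -0.97 ± 0.18, adjusted p = 0.074). Decr2, a peroxisomal enzyme of fatty acid oxidation, was at 178, 167 and 154 TPM against 76.4, 75.4 and 112 TPM (adjusted p = 0.0828). Acbd5, which tethers peroxisomes to the endoplasmic reticulum, was at 72.6, 68.5 and 63.7 TPM against 37.8, 44.5 and 35.3 TPM (adjusted p = 0.0874). On the other side, pyruvate kinase M (Pkm), the form of nonparenchymal and proliferating cells, was at 2.67, 2.07 and 2.98 TPM against 7.40, 7.05 and 6.84 TPM (adjusted p = 0.0805). Of its 31-base words 34.7% occur in other genes, as do 29.2% of those of Npm1. Extracellular superoxide dismutase (Sod3) was at 3.11, 3.36 and 3.54 TPM against 7.74, 7.66 and 5.67 TPM (adjusted p = 0.0828).

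Kupffer cell, endothelial and stellate cell markers had medians above that of all genes, although none of them was called one by one with limma. Of 15 Kupffer cell and macrophage markers, 13 had values that did not overlap and were higher in KO (11.1% of all genes did so). Under median-ratio scaling 12 did, against 7.95% of all genes. Of the 15, 12 had an unadjusted p below 0.05 (12.9% of all genes), and the list's median was 1.49. Their summed level was 94.3 to 169 TPM in WT and 210, 472 and 600 TPM in KO 2, 4 and 5. A separate list of recruited and lipid-associated macrophage markers had 5 of 11 members tested and a median of 0.21. Of these 5, 1 did not overlap and was higher in KO, and 0 had an unadjusted p below 0.05. Their sums overlapped, with 75.9 to 93.8 TPM in WT and 68.8 to 98.3 TPM in KO. The scavenger receptor Marco was at 1.44, 1.80 and 7.67 TPM in WT and at 11.9, 23.9 and 69.2 TPM in KO (log2 2.86 ± 0.67, adjusted p = 0.108). Clec4f, a lectin restricted to Kupffer cells in mice, was at 28.7, 20.0 and 25.5 TPM against 32.2, 78.1 and 71.8 TPM (adjusted p = 0.442), and the complement subunit C1qc at 12.7, 6.98 and 12.2 TPM against 21.2, 46.8 and 55.1 TPM (adjusted p = 0.191). Timd4, a receptor of long-lived resident macrophages, overlapped, with 1.54, 0.92 and 1.08 TPM against 1.25, 3.57 and 4.56 TPM. In whole liver, more cells of a type and more RNA per cell cannot be told apart. The part of these cells in the acute phase difference was not tested.

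Endothelial markers did not overlap and were higher in KO for 10 of 13, with 10 at an unadjusted p below 0.05 (11.1% and 12.9% of all genes), a median of 0.72 and sums of 61.0 to 75.2 TPM in WT against 114 to 130 TPM in KO. Among them Lyve1, at 0.43, 0.14 and 0.80 TPM in WT, passed the filter only through KO, which by itself fixes its lack of overlap. The count was 8 under median-ratio and quantile scaling, against 7.95% and 8.99% of all genes. The vascular receptor Eng was at 5.13, 4.69 and 7.71 TPM in WT and at 15.3, 12.6 and 11.8 TPM in KO (adjusted p = 0.0868). The adhesion molecule Pecam1 was at 1.57, 1.03 and 1.75 TPM against 3.88, 3.63 and 3.74 TPM (adjusted p = 0.134). For stellate cell and matrix genes 8 of 15 did not overlap and were higher (11.1% of all genes), or 7 under median-ratio scaling (7.95%). Of the 15, 11 had an unadjusted p below 0.05 (12.9% of all genes). The median was 0.90 (0.60 without KO 2), and the sums were 67.3 to 107 TPM in WT against 128 to 209 TPM in KO. Of the 24 genes listed, Col1a1, Col1a2, Acta2, Des, Pdgfrb and Timp1 were among those that missed the filter. The matrix protein gene Sparc was at 6.35, 5.50 and 8.17 TPM in WT and at 24.2, 15.1 and 12.1 TPM in KO (adjusted p = 0.109), highest in KO 2. In contrast to the Kupffer cell and macrophage list, which was highest in KO 5, the endothelial and stellate lists were highest in KO 2.

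**Figure D3:**
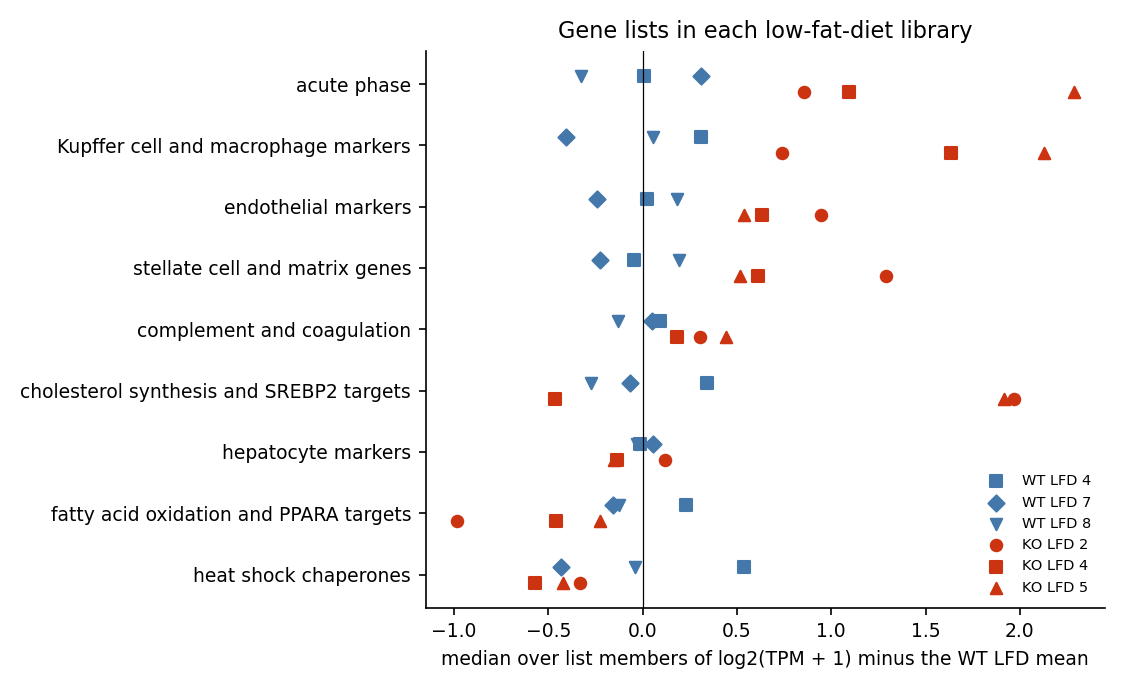
Median over the tested members of 9 gene lists of log2(TPM + 1) minus the WT LFD mean, for each of the 6 LFD libraries (blue WT, red KO, 1 symbol for each animal number). Red symbols lie to the right of all blue ones for the acute phase, macrophage, endothelial, stellate and complement lists, and the cholesterol list has KO 4 apart from KO 2 and KO 5.

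Markers of blood and lymphoid cells varied between animals of a group. Erythroid markers summed to 498 to 964 TPM in WT and 392 to 755 TPM in KO, and B and plasma cell markers to 17.9 to 117 TPM and 52.5 to 332 TPM, with overlap in both lists and no gene of either called by limma or at an unadjusted p below 0.05. Neutrophil transcripts S100a8 and S100a9, which form the calprotectin complex, were at 0.65 to 1.61 and 0.87 to 2.33 TPM in WT. S100a8 was at 1.92, 27.0 and 12.0 TPM and S100a9 at 2.30, 41.0 and 13.9 TPM in KO 2, 4 and 5, so KO 2 was near WT and KO 4 highest (adjusted p = 0.134 and 0.169). The other 6 neutrophil markers missed the filter. None of 12 T and NK cell markers reached it, and among cholangiocyte markers the 3 tested had a median of -0.31. Hepatocyte markers had a median of -0.05, with none of 19 called by limma. An unadjusted p below 0.05 was found for 4 (12.9% of all genes), 1 of them higher and 3 lower. Alb was at 38562, 51216 and 30047 TPM in WT and at 22324, 19950 and 17654 TPM in KO (log2 -0.97 ± 0.26, adjusted p = 0.134).

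Genes of cholesterol synthesis, driven by the factor SREBP2, split the knockout livers. None of 25 was called with limma, and 7 had an unadjusted p below 0.05 (12.9% of all genes). The median was 1.09, with all 25 differences above 0. The list's median against the WT mean was 1.97 in KO 2 and 1.92 in KO 5, but -0.46 in KO 4. Fdps, which makes farnesyl diphosphate, was at 37.6, 27.6 and 24.7 TPM in WT 4, 7 and 8 and at 469, 40.1 and 412 TPM in KO 2, 4 and 5 (log2 2.71 ± 0.82, adjusted p = 0.177). Of its 31-base words 27.9% occur in other genes. Mvd, which makes isopentenyl diphosphate, was at 2.10, 1.61 and 1.90 TPM against 31.3, 2.33 and 20.9 TPM (adjusted p = 0.242). Without KO 2 or KO 5 the list's median fell to 0.68 and 0.63, and without KO 4 it was 1.89.

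Fat synthesis showed a related split, with no gene of 18 called by limma. An unadjusted p below 0.05 was found for 5 (12.9% of all genes), 3 of them higher and 2 lower. Srebf1, the master factor of lipogenesis, was at 9.90, 10.1 and 6.53 TPM in WT and at 82.8, 9.22 and 34.6 TPM in KO (adjusted p = 0.271). Fatty acid synthase (Fasn) was at 18.3 to 21.3 TPM in WT and at 254, 14.3 and 40.8 TPM in KO, with KO 4 below WT. The list's median of 0.53 dropped to 0.00 without KO 2, and was 0.80 and 0.84 without KO 4 or KO 5. The elongases Elovl2 and Elovl5, which lengthen polyunsaturated fatty acids, had the other order. Elovl2 was at 200, 161 and 212 TPM in WT and at 106, 108 and 69.2 TPM in KO (log2 -1.03 ± 0.22), and Elovl5 at 302, 215 and 300.2 TPM against 159, 101 and 62.6 TPM (log2 -1.42 ± 0.31), both with adjusted p = 0.0874.

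Fatty acid oxidation and PPARA target genes lay below WT. Of 32 tested members none was called by limma, and 16 had an unadjusted p below 0.05 (12.9% of all genes), of which 15 were lower. The values of 9 did not overlap and were lower in KO (6.5% of all genes did so). Under median-ratio scaling 17 did so, against 11.2% of all genes. The list's median was -0.67, or -0.43 without KO 2. The omega-hydroxylases Cyp4a10 and Cyp4a14, textbook PPARA targets, were nearly off in KO 2 alone. Cyp4a14 was at 2401, 1892 and 1851 TPM in WT and at 1.42, 1235 and 730 TPM in KO, and its log2 difference of -3.97 became -1.10 without KO 2 (adjusted p = 0.347 with all libraries). Cyp4a10 was at 2077, 1574 and 1814 TPM against 6.97, 442 and 526 TPM (adjusted p = 0.174), with 44.9% of its 31-base words shared with other genes. Ppargc1a, a coactivator of oxidative genes, was at 1.82, 2.16 and 1.60 TPM against 0.81, 0.49 and 0.97 TPM (adjusted p = 0.103). Among uptake and binding genes, the very-long-chain acyl-CoA synthetase Slc27a2 was at 1292, 1027 and 1040 TPM against 392, 511 and 729 TPM (log2 -1.08 ± 0.24, adjusted p = 0.0922).

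In glucose metabolism 2 of 21 genes were called, Gys2 and Igfbp2, both lower (0.0998% of all genes were called lower). Mlxipl, which encodes the carbohydrate-sensing factor ChREBP, was at 15.9, 18.0 and 15.4 TPM against 47.4, 33.5 and 20.9 TPM (adjusted p = 0.223). The gluconeogenic enzyme Pck1 overlapped, with 1037 to 1404 TPM in WT and 492 to 1369 TPM in KO. KO 2 was the most extreme knockout liver for Mlxipl, Srebf1, Fasn, Cyp4a14 and Pck1.

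**Figure D4:**
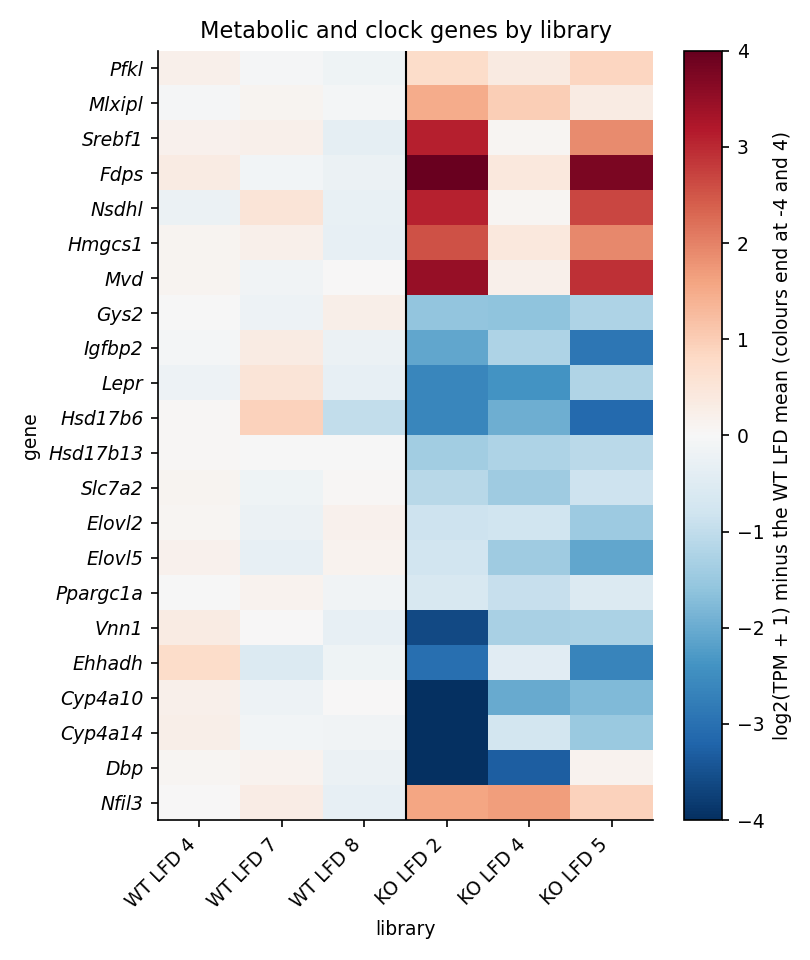
Level of 22 metabolic and clock genes in each of the 6 LFD libraries, as log2(TPM + 1) minus the WT LFD mean (red above, blue below, colours end at -4 and 4). Gys2, Igfbp2, Lepr and Hsd17b6 are below WT in all 3 knockout livers, while Fdps and Mvd are far above it in KO 2 and KO 5 and near it in KO 4.

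Of 48 gene lists, 38 held no called gene, 1 of them with no member tested. Besides those already given, single calls lay in fatty acid uptake and binding (Fabp4, of 17), urea cycle and amino acid genes (Asns, of 31), periportal genes (Hsd17b6, of 20), iron and heme handling (Hpx, of 26), cell cycle genes (Cdkn1a, of 10) and long noncoding RNAs (Snhg11, of 7). The growth hormone axis had 2 of 19 (Lepr and Igfbp2). Over all genes 0.236% were called, 0.136% higher and 0.0998% lower. A gene can stand in several lists. Ribosomal proteins (76 tested) and nuclear-encoded respiratory chain subunits (56 tested) had medians of -0.10 and -0.05 and no member at an unadjusted p below 0.05.

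On HFD, where no library is shared with the LFD comparison but the estimate of spread is, 4183 of the same 11018 genes (38%) were called between the genotypes, 1123 higher (10.2%) and 3060 lower (27.8%) in KO. The TPM values did not overlap for 14.7% of genes that were higher and 39.5% that were lower. The library KO HFD 1 stood apart from the others. Mitochondrially encoded genes held 22.6% of its TPM, against 7.53 to 12.6% in the other libraries of the series. Its array weight, a limma measure of library quality, was 0.19, the lowest of the 12. KO LFD 4, at 0.439, and WT LFD 4, at 0.584, came next. The part of KO HFD 1 in the HFD values, and in tests that use them, was not tested. Of the 26 LFD calls, 10 were called on HFD in the same direction and 1, Slc13a3, in the opposite one. The genes with the same direction on both diets included Fabp4 (1.71 ± 0.34 on HFD, adjusted p = 0.00377), Fam25c (1.11 ± 0.26, adjusted p = 0.0074) and Wdfy1 (1.06 ± 0.18, adjusted p = 0.00207). Slc7a2 (-1.61 ± 0.20, adjusted p = 0.000667), Hsd17b6 (-1.48 ± 0.42, adjusted p = 0.0183) and Defb1 (-1.24 ± 0.27, adjusted p = 0.00527) were lower on both. Of the 29 acute phase genes, 2 were called higher and 9 lower on HFD, shares close to the 10.2% and 27.8% of all genes. The list's median on HFD was -0.83. The HFD difference was -1.95 ± 0.78 for Saa1 (adjusted p = 0.0672), -2.25 ± 0.93 for Saa2 (adjusted p = 0.0737) and -0.40 ± 0.33 for Hpx (adjusted p = 0.366). Gys2, Igfbp2 and Lepr differed by 0.02 ± 0.21, 0.01 ± 0.36 and 0.18 ± 0.34 on HFD. In mean level, Lepr was at 7.88 TPM in WT LFD but at 0.243 TPM in WT HFD, and Igfbp2 at 1381 and 397 TPM, so for both genes WT LFD was the high group.

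The difference between the diets was itself tested as the interaction of genotype and diet. It passed for 17 of the 26 LFD calls and for 1194 (10.8%) of all genes. The LFD difference that chose these 26 is part of the interaction, so the shares are not compared. That count was 10 without WT 7 and 2 without WT 8, and the count over all genes was 233 without WT 7, 11 without WT 8, 382 without KO 2, 2019 without KO 4 and 345 without KO 5. Over all genes tested, 52.7% had the same sign of difference on both diets.

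**Figure D5:**
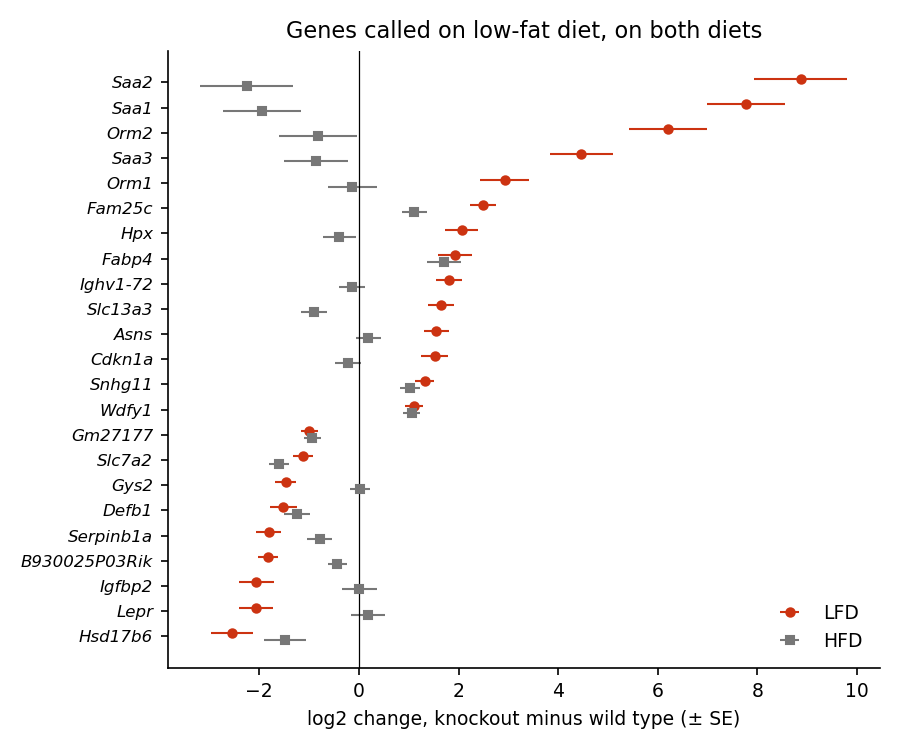
Log2 difference between knockout and wild type (± SE) for the called genes with an Ensembl identifier, on LFD (red circles) and HFD (grey squares), ordered by the LFD value. Saa1 and Saa2 lie near 8 to 9 on LFD and near -2 on HFD, while Fabp4, Wdfy1, Slc7a2 and Defb1 lie on the same side on both diets.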

How the data were processed

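RNA-seq of 12 mouse livers in 4 groups of 3 was used. The deposited TPM values had been made by the authors with HISAT2, StringTie and mm10, per the submitters' processing notes, without versions or annotation. Read counts were not analysed here, so depth is unknown and no interval or floor is given. TPM was transformed as log2(TPM + 1), which understates the change of low genes. limma 3.58.1 (R 4.3.3) fitted 4 group means to all 12 libraries with a trended variance, and p-values were adjusted by Benjamini-Hochberg over 11018 genes (called below 0.05). Each printed adjusted p and SE comes from this fit. Single values were compared by exact 2-sided permutation. GENCODE M21 (GRCm38) gave positions and gene types, and RefSeq the promoters. Sequence shared between genes was measured as the percent of 31-base words found in another gene. Python 3.11.15 and matplotlib 3.10.9 were used.

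The members, the 48 gene lists and the tests were chosen with earlier results of these data known. Genes named are Lix1l, Cd36, up to 15 largest rises and falls among called, annotated genes that averaged 5 TPM or more in the higher group without overlap (filled by lowest p), and up to 4 members per list with the lowest p. Others are marked as chosen afterwards, and Hp, Lcn2, Apcs, Serpina3n, Crp, Clec4f, Timd4, Fasn, Cyp4a14 and Pck1 were also named after their values were seen. Each library is 1 animal by its label. Knockout columns carry the prefix HO, read as knockout because the authors' deposited KO mean columns are the means of these columns and the animal numbers match the labels. Some results are not reported here.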

Additional observations from a re-analysis of the deposited data

Results flagged for a closer look

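For 14 genes called on LFD and named here, the knockout difference on HFD departed from that on LFD by the test of the interaction (limma, adjusted p below 0.05). The HFD difference minus the LFD difference, on the log2(TPM + 1) scale, was -9.71 for Saa1, -11.13 for Saa2, -5.32 for Saa3, -3.06 for Orm1, -7.03 for Orm2 and -2.46 for Hpx among the acute phase genes. It was -1.37 for Fam25c, -2.55 for Slc13a3, -1.37 for Asns, -1.74 for Cdkn1a and -1.96 for Ighv1-72, genes that were higher in KO on LFD. It was 1.49 for Gys2, 2.25 for Lepr and 2.07 for Igfbp2, which were lower. Without WT 8 the interaction passed for 2 of the 26 LFD calls. These genes were chosen by their LFD difference, which is part of the interaction.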

How the results depend on the processing

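The number of genes called on LFD was 26 (15 higher, 11 lower), a split of 57.7% higher. It was 8 (6 and 2) with a pseudocount of 0.1, 17 (6 lower) with 0.5, 17 (7 lower) without a filter and 15 (8 and 7) with a filter of 5 TPM. It was 75 (33 and 42, 44% higher) under median-ratio scaling, 82 (42 and 40) under quantile normalization, 50 (31 and 19) with array weights, and 1 (1 and 0) from only the 6 LFD libraries. Without the 3 KO HFD libraries, a setting added after seeing the data, it was 15 (4 lower). Leaving out each LFD library gave 5 to 65 calls, 3 to 43 higher and 2 to 25 lower. The interaction of genotype and diet passed for 335 genes without a filter, 4100 with array weights and 11 to 2019 with a library left out. Of the LFD calls, 5 were called in the same direction on HFD with a filter of 5 TPM, the interaction passed for 8 without a filter, and for 2 to 17 with a library left out. Acute phase genes called numbered 3 without a filter, 1 from only the LFD libraries and 2 to 9 with a library left out. Ighm, not called, ranged from -0.013 to 0.92 and Pfkfb1 from -0.35 to 1.10 with a library left out, changing sign. The cause of these changes was not tested. No paired analysis was possible because the LFD groups share fewer than 2 replicate numbers. Count tests (edgeR, DESeq2) were not run, since the values are TPM.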

Other observations

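Outside inflammation and lipid metabolism, clock outputs differed between individual knockout livers. Dbp, a clock-controlled transcription factor, was at 61.8, 63.8 and 49.1 TPM in WT and at 0.93, 4.95 and 64.3 TPM in KO 2, 4 and 5, so KO 5 matched WT and the others were far below (log2 -2.70 ± 0.89, adjusted p = 0.212). The difference was -1.58 without KO 2 and -4.12 without KO 5. Nfil3, which acts opposite to Dbp, was at 8.23, 10.2 and 6.24 TPM against 26.1, 28.2 and 16.3 TPM (adjusted p = 0.207). None of 20 clock genes was called by limma, and 5 had an unadjusted p below 0.05 (12.9% of all genes), 3 of them higher and 2 lower. The time of day at collection is not used here.

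Detoxification and bile acid genes also held wide gaps that did not pass. The glutathione transferase Gstm2 was at 27.7, 49.8 and 23.9 TPM in WT and at 127, 105 and 75.9 TPM in KO (adjusted p = 0.0868). Its list of 25 NRF2 targets had none called by limma, 4 at an unadjusted p below 0.05 (12.9% of all genes) and a median of 0.20. Cyp2c70, which makes the muricholic acids of mice, was at 20.1, 62.1 and 30.9 TPM against 394, 127 and 74.9 TPM (adjusted p = 0.118). Cyp7a1, the rate-limiting enzyme of bile acid synthesis, was at 41.0, 17.3 and 41.1 TPM against 3.30, 5.90 and 25.1 TPM, with KO 5 inside the WT range (adjusted p = 0.223). The interferon-induced Ifit1 was at 4.18, 3.43 and 3.73 TPM against 1.34, 0.72 and 1.43 TPM (adjusted p = 0.0838), in a list of 27 with a median of -0.02. Heat shock chaperones had a median of -0.45 over 16 genes, -0.20 without WT 4 and -0.69 without WT 7. Complement and coagulation genes had a median of 0.29, and 11 of 38 did not overlap and were higher in KO (11.1% of all genes), or 9 under median-ratio scaling (7.95% of all genes).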
